A study of Mus musculus with 14 samples.

Results

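Transcripts of 3 families of conjugating enzymes were described, the glutathione S-transferases (Gst), the UDP-glucuronosyltransferases (Ugt) and the sulfotransferases (Sult). A gene was a member if the gene name on the array began with Gst and a class letter of the cytosolic or kappa enzymes followed by a digit, with Ugt1, Ugt2 or Ugt3 and a subfamily letter, or with Sult and a digit. This gave 51 genes measured by 71 probes, of 36161 gene names and 55681 probes in all, namely 20 Gst, 14 Ugt and 17 Sult genes. The study followed intestinal tissue from the normal state to the adenoma and the carcinoma, and the data are 14 one-color microarrays of mouse RNA in 5 groups. Small intestine (3 arrays) was whole tissue of C57BL/6J mice, and the small intestine samples are listed under different animals. Adenomas (3 arrays) were macroscopic tumors of the small intestine of an ApcMin/+ mouse (APCmin/+ in the labels), a strain with 1 truncated copy of the tumor suppressor Apc, and adjacent tissue (2 arrays) was whole tissue taken beside them. The study lists all adenoma and adjacent pieces under 1 animal, so that their spread is that between pieces of tissue and p-values measure no more than that. Colon (3 arrays) was whole tissue labelled C57BL/6J, although the study's list of samples places 1 of these samples under an ApcMin/+ mouse. CT26 (3 arrays) is a cell line grown from a colon carcinoma of a BALB/c mouse, and thus a single line from another strain than the tissues it was compared with. Wild type animals were adult. The labels give no treatment, and by the study's methods ApcMin/+ mice that showed suffering received an analgesic.

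Conjugating enzymes carry out the second phase of the metabolism of drugs, dietary compounds, bile acids, bilirubin and steroid and thyroid hormones. Glutathione S-transferases join reactive molecules to the tripeptide glutathione, UDP-glucuronosyltransferases of the endoplasmic reticulum transfer glucuronic acid from UDP-glucuronate, and cytosolic sulfotransferases transfer sulfate from the donor PAPS. The gut is, next to the liver, a main site of this chemistry, and its enterocytes take part in it as food is absorbed.

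Values below are levels on a log2 scale. The level of a gene is the log2 of the background-subtracted signal of its brightest probe minus the 75th percentile of that array, so that 0 is the 75th percentile and 1 unit is a doubling. Levels were compared between groups for each probe, never between probes, because probes differ in brightness. A gene was called in a comparison when its log2 fold change was at least 1.2 in size and the adjusted p at most 0.01 in limma, with Benjamini-Hochberg adjustment over all probes tested, the thresholds the study used. Probes entered a test if they were well above background, by the scanner's own criterion, on every array of at least 1 of the groups. With whole tissue, fewer cells of a type and less RNA per cell cannot be told apart.

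The third colon array stood apart from the other two. Over all probes it correlated at 0.951 to 0.969 with small intestine and less, at 0.934 to 0.938, with the first and second colon arrays. The correlation between those was 0.985. It also had the lowest share of probes well above background, 46.8% in a range of 46.8% to 58.2%. Its colonocyte markers were split. Their median level was 5.0 and 5.11 on the first and second colon arrays and 2.22 on the third, against -1.23 to -0.80 in small intestine. Car1, a carbonic anhydrase of the colon, was at 7.17, 7.75 and -3.09 on the colon arrays and the water channel Aqp8 at 6.44, 6.78 and -4.61, so that on the third both were as low as in small intestine, while Saa1, an acute phase protein, was highest there (7.49, 7.05 and 9.38). The summed level of the colonocyte markers was 9.01 to 9.63 in colon and 5.07 to 5.63 in small intestine, and that of 10 enterocyte markers spanned 3.43 to 10.7 among colon arrays, the highest on the third. Counts of calls with colon are therefore given with and without it, and the values of a gene where its omission changed a call or moved a called fold by over 1.5 times. Small intestine, adjacent tissue, adenomas and colon had all 8 epithelial markers well above background. CT26 had 3 or 4 of them, and Epcam and Cdh1, which define epithelium, were not well above background on any CT26 array.

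Of the 51 genes, 32 were well above background on all 11 tissue arrays and 13 on all 14 arrays. The 13 were 10 Gst genes and the Ugt genes Ugt1a10, Ugt1a6b and Ugt3a1, with 0 of 17 Sult genes among them. Another 15 were measured on all tissue arrays and on no CT26 array. There were 9 genes that no array measured above background, Gstt4, Ugt2b1, the estrogen sulfotransferase Sult1e1 and the hydroxysteroid sulfotransferases Sult2a1, Sult2a2, Sult2a3, Sult2a4, Sult2a6 and Sult2a7. The Sult2a enzymes are best known from the liver. Isolated arrays measured 6 more. Sult1c1 was well above background on 2 arrays, Sult6b1 on 2 of the CT26 arrays, and Sult3a1, Sult5a1, Ugt2a1 and Ugt3a2 on 1 array each. These 15 genes entered no test.

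**Figure D1:**
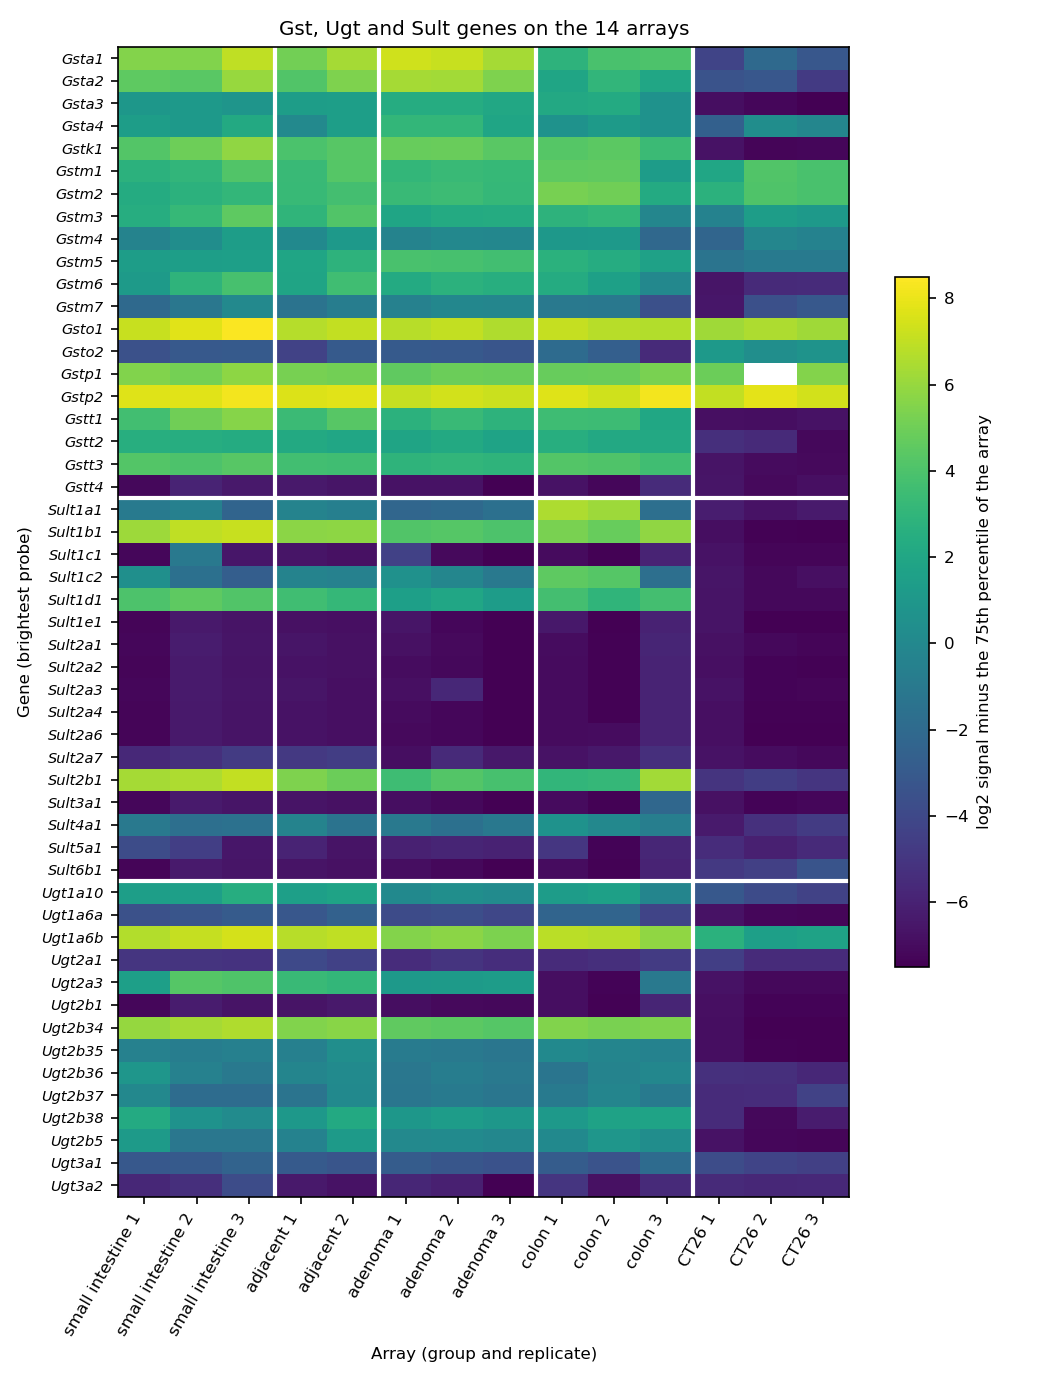
Level of each Gst, Ugt and Sult gene (rows) on each of the 14 arrays (columns, by group), as scaled log2 signal of the brightest probe on the color scale. The 3 CT26 columns are low for most rows that are high in the 11 tissue columns, and the third colon column differs from the other two in Sult1a1 and Sult1c2. The empty cell is Gstp1 on the second CT26 array, whose spot was marked as an outlier.

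Genes of these families lie in clusters of near copies, and for a few of them the 60-base probes were alike. Of 2462 pairs of probes of different members, 7 were alike at 40 or more overlapping bases. The Gsta1 and Gsta2 probes shared 46 of 50 overlapping bases, and those of Ugt2b37 and Ugt2b5 46 of 55. Stretches of 30 bases of each are shown because the levels of these pairs may hold signal from the partner; capitals mark the bases that differ, 3 in the first pair and 6 in the second.
Gsta1, probe bases 2 to 31: tggcctctaatGgtttgcaattataaaaAG
Gsta2, probe bases 12 to 41: tggcctctaatTgtttgcaattataaaaTA
Ugt2b37, probe bases 29 to 58: AatttatgaGccaccttctaaacactGATT
Ugt2b5, probe bases 24 to 53: TatttatgaAccaccttctaaacactTGAC
The other alike pairs were Sult2a2 with Sult2a1 (54 of 59 bases), Sult2a4 with Sult2a1 (51 of 54) and with Sult2a2 (47 of 53), and Gstm7 with Gstm6 (41 of 55) and Gstm3 (40 of 59).

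The first comparison asks how adenomas differ from healthy small intestine. Adenomas had lower transcript levels of the sulfotransferases Sult2b1, Sult1b1 and Sult1d1 and of Ugt2b34, Ugt1a10, Ugt1a6b and Gstt3, and higher levels of Gsta3 and Gstm5. Of 36 members tested, each measured above background on all 6 arrays, 7 were called lower and 2 higher, or 19.4% and 5.56%. Over all 22088 genes tested, 11.1% were called lower and 11.3% higher. By family, 3 of 6 Sult, 3 of 11 Ugt and 1 of 19 Gst genes were lower, and the 2 that were higher were both Gst genes. The median log2 fold change of the 36 was -0.487, against -0.150 over all genes tested. The 2 groups did not overlap for 19 of the 36 (52.8%), and for 65.2% of all genes tested.

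Sulfotransferases showed the largest falls. Sult2b1, which sulfates cholesterol and other hydroxysteroids, was at 6.32, 6.54 and 7.0 on the small intestine arrays, 5.41 and 4.88 in adjacent tissue and 3.55, 4.23 and 3.86 in adenomas. Its groups were in this order without overlap. Adenomas were 6.69-fold lower than small intestine (log2 fold change -2.74, SE 0.255, adjusted p = 0.000313). Sult1b1, an enzyme known for sulfating thyroid hormones and phenols, was at 6.16, 6.98 and 7.18 in small intestine, 5.75 and 5.77 in adjacent tissue and 4.13, 4.28 and 4.06 in adenomas. The adenoma pieces lay close together and the difference was 6.13-fold (log2 fold change -2.62, SE 0.278, adjusted p = 0.000513). Sult1d1, which sulfates catecholamines and related amines, was at 4.0, 4.51 and 4.15, then 3.61 and 3.15, then 1.52, 1.97 and 1.35. It too went down in steps, and adenomas were 6.10-fold lower (log2 fold change -2.61, SE 0.228, adjusted p = 0.000254). The mean levels in small intestine, adjacent tissue and adenomas were 6.62 ± 0.348, 5.14 ± 0.372 and 3.88 ± 0.343 for Sult2b1, 6.77 ± 0.539, 5.76 ± 0.0175 and 4.15 ± 0.111 for Sult1b1, and 4.22 ± 0.260, 3.38 ± 0.325 and 1.61 ± 0.320 for Sult1d1 (SD, n = 3, 2 and 3). The remaining tested Sult genes, Sult1a1, Sult1c2 and Sult4a1, had log2 fold changes of -0.67, 1.07 and 0.16 and were not called.

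**Figure D2:**
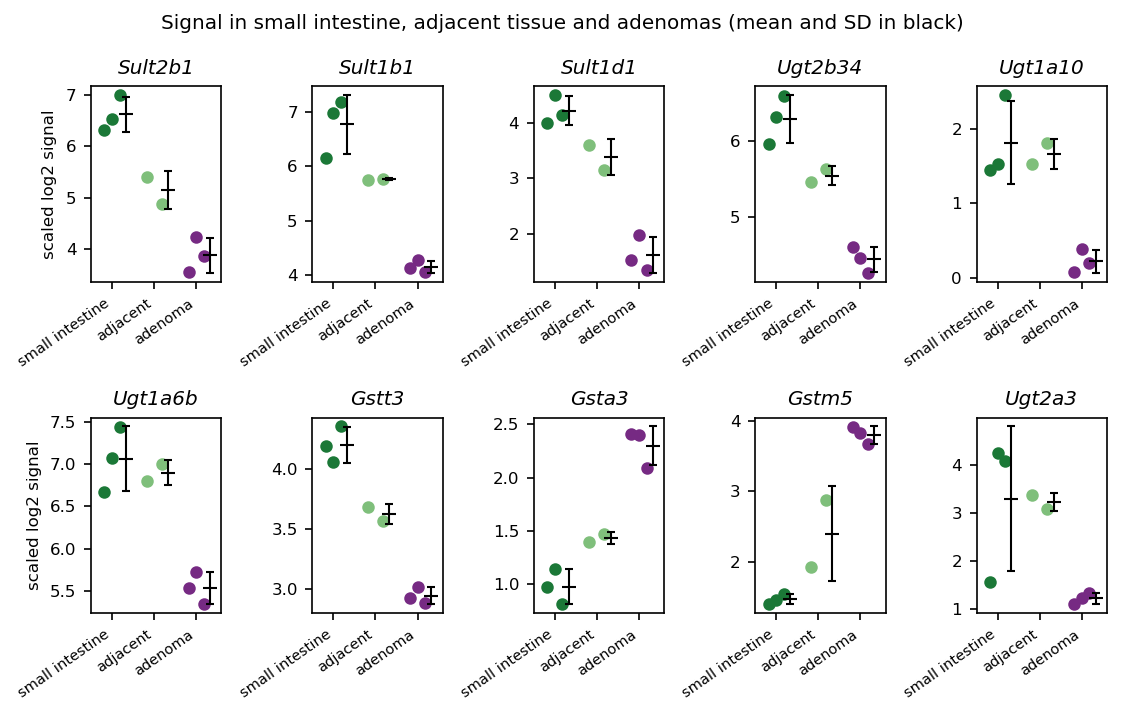
Scaled log2 signal of the members called between adenomas and small intestine or adjacent tissue, with 1 point for each array of small intestine (3), adjacent tissue (2) and adenomas (3) and the mean and SD of each group in black. Sult2b1, Sult1b1 and Sult1d1 step down from small intestine through adjacent tissue to adenomas, whereas Gsta3 and Gstm5 lie highest in adenomas.

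Among glucuronosyltransferases, the called genes were Ugt2b34, Ugt1a10 and Ugt1a6b, each by its brightest probe. Ugt2b34, of the subfamily that conjugates steroids, was at 5.97, 6.31 and 6.60 in small intestine, 5.46 and 5.63 in adjacent tissue and 4.60, 4.46 and 4.27 in adenomas. All adenoma pieces lay under all other pieces, and the difference was 3.60-fold (log2 fold change -1.85, SE 0.211, adjusted p = 0.000674). Ugt1a10 is an enzyme of the Ugt1a locus, whose genes have a first exon each and share the remaining ones. It was at 1.45, 1.54 and 2.46 in small intestine, 1.53 and 1.81 in adjacent tissue and 0.09, 0.39 and 0.20 in adenomas, and was 3.01-fold lower in adenomas than in small intestine (log2 fold change -1.59, SE 0.288, adjusted p = 0.00416). Its adjusted p was above 0.01 when any 1 of the adenoma arrays was left out, and its other probe was not called (log2 fold change -0.79, adjusted p = 0.0984). Ugt1a6b, of the subfamily that conjugates simple phenols, was at 6.67, 7.07 and 7.44, then 6.80 and 7.0, then 5.54, 5.73 and 5.35. Small intestine and adjacent tissue overlapped, adenomas lay below both, and the fall from small intestine was 2.87-fold (log2 fold change -1.52, SE 0.233, adjusted p = 0.00218). The call was lost without the first or the third adenoma array.

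The probes of Ugt1a6b did not move together. The brightest lies at chr1 of mm9, 1021 bases from the start of the Ugt1a6a probe and 111244 bases from that of the other Ugt1a6b probe, and, because the Ugt1a genes share exons, which of their transcripts it measured cannot be told apart. The dimmer Ugt1a6b probe was at -3.89, -4.67 and -5.01 in small intestine, -4.55 and -3.09 in adjacent tissue and -2.26, -2.29 and -3.26 in adenomas. Its log2 fold change between adenomas and small intestine was +1.92, a call in the opposite direction. Ugt1a6a was at -3.56, -3.25 and -2.89 in small intestine and -3.85, -3.66 and -4.08 in adenomas and was not called. Of the other Ugt2b genes, Ugt2b5, Ugt2b35, Ugt2b36, Ugt2b37 and Ugt2b38 had log2 fold changes of 0.42, -0.47, -0.77, 0.11 and 0.04, with none called, and Ugt3a1 of -0.36. Ugt2a3, which is expressed in the intestine and conjugates bile acids, was at 1.56, 4.25 and 4.08 in small intestine and 1.10, 1.22 and 1.33 in adenomas. Its first small intestine piece lay near the adenomas, and the log2 fold change of -2.08 had a SE of 0.673 and an adjusted p of 0.0366.

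Glutathione S-transferases went both ways. Gstm5, a mu-class enzyme, was at 1.40, 1.45 and 1.54 in small intestine, 1.92 and 2.87 in adjacent tissue and 3.91, 3.82 and 3.67 in adenomas. It was the member with the largest rise in adenomas, 5.05-fold over small intestine (log2 fold change +2.34, SE 0.154, adjusted p = 0.000114). Gsta3, an alpha-class enzyme known for detoxifying aflatoxin in the mouse, was at 0.97, 1.14 and 0.82, then 1.39 and 1.48, then 2.41, 2.40 and 2.09. Its groups did not overlap, and adenomas were 2.50-fold above small intestine (log2 fold change +1.32, SE 0.177, adjusted p = 0.00123). Gstt3, a theta-class enzyme, was at 4.19, 4.06 and 4.36 in small intestine, 3.69 and 3.57 in adjacent tissue and 2.92, 3.02 and 2.88 in adenomas, 2.40-fold lower than in small intestine (log2 fold change -1.26, SE 0.158, adjusted p = 0.000965). Its call was lost without the third small intestine array, and its log2 fold change was -0.97, under the threshold, with quantile normalization and likewise -0.97 in the authors' normalized table.

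The mean levels of small intestine, adjacent tissue and adenomas were 1.46 ± 0.0690, 2.40 ± 0.671 and 3.80 ± 0.122 for Gstm5 and 0.98 ± 0.163, 1.43 ± 0.0589 and 2.30 ± 0.182 for Gsta3 (SD, n = 3, 2 and 3). The other alpha-class genes Gsta1, Gsta2 and Gsta4 had log2 fold changes of 0.96, 1.0 and 1.14 and were not called, and of these Gsta1 and Gsta2 are the pair with alike probes. Gstt1, a theta-class enzyme, had a log2 fold change of -1.78 with an adjusted p of 0.0184, and Gstm3 one of -1.24 with an adjusted p of 0.0695. The other mu-class genes Gstm1, Gstm2, Gstm4, Gstm6 and Gstm7 lay between -0.62 and 0.80 and were not called. Gsto1 and Gsto2 of the omega class were at -0.97 and 0.09, Gstp1 and Gstp2 of the pi class at -0.69 and -0.67, Gstt2 at -0.50 and the mitochondrial and peroxisomal enzyme Gstk1 at -0.34, all log2 fold changes without a call.

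**Figure D3:**
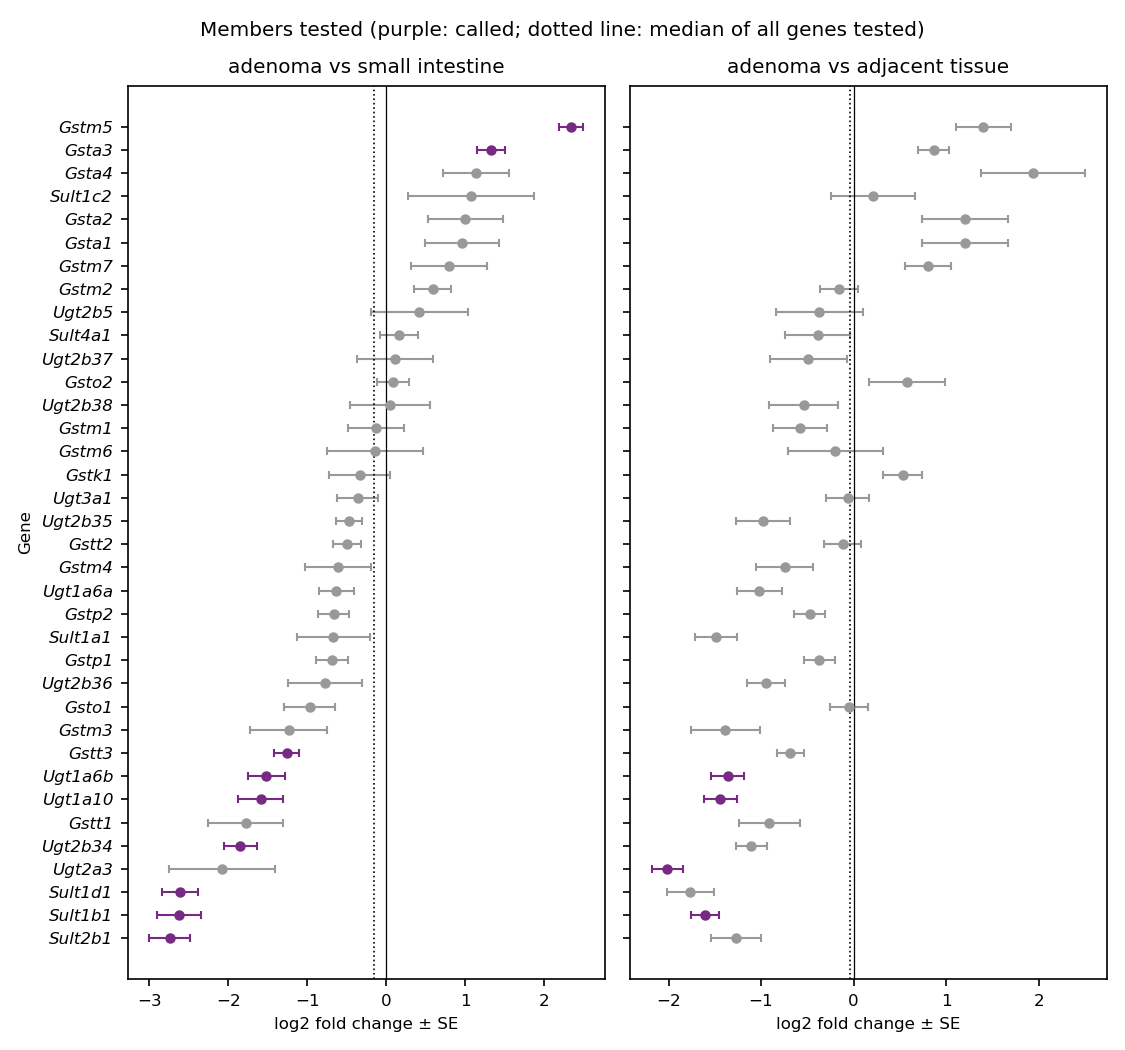
Log2 fold change of each tested Gst, Ugt and Sult gene between adenomas and small intestine and between adenomas and adjacent tissue, with bars for the SE of the limma fit and called genes in purple. The dotted line is the median of all genes tested, -0.150 and -0.0357. Gstm5 and Gsta3 are the called genes to the right. Every Ugt point against adjacent tissue, each from the brightest probe of its gene, lies left of 0.

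The promoters of called genes were read for letters of known binding motifs. RefSeq sequences of GRCm38.p6, 250 bases before the start, were at hand for 43 of the 51 genes and not for Gsta4, Gstt2, Sult2a1, Sult2a2, Sult2a7, Sult4a1, Ugt1a6b and Ugt3a2. The motifs, searched on both strands, were the core of the antioxidant response element bound by NRF2 (TGACNNNGC), the core bound by the aryl hydrocarbon receptor (GCGTG) and the TATA box (TATAAA). They were found before a start of 3, 7 and 7 of the 43 genes, and of 11.5%, 30.9% and 14.3% of all 27025 genes with such sequences. The promoters of the 2 genes that were higher in adenomas and of Sult1d1, which was lower, are shown, with motif letters in capitals. A match is a description of the letters and not a binding site.
Gsta3, chr1:21240335-21240584, + strand: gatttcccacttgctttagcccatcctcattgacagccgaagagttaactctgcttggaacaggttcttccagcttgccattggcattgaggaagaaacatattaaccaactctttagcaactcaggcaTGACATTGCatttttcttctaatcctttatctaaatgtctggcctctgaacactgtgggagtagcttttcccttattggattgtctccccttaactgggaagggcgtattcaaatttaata
Gstm5, chr3:107895604-107895853, + strand: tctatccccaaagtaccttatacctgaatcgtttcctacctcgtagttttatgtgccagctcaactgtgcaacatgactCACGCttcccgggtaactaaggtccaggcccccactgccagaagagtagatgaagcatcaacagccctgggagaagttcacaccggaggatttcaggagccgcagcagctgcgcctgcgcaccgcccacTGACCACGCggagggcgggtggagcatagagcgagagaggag
Sult1d1, chr5:87569007-87569256, - strand: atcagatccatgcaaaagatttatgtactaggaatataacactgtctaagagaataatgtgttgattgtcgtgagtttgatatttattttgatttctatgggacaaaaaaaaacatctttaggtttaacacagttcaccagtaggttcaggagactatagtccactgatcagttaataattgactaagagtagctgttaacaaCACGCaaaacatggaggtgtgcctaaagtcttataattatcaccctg
Gsta3 and Gstm5 each held 1 antioxidant response element core, at 121 to 113 and 42 to 34 bases before the start, and the third member with this core was Gstm7. In Gstm5 a GCGTG on the other strand lies inside that core, and a second one is farther upstream. Sult1d1 held a GCGTG at 47 to 43 bases. The other members with a GCGTG were Gsta2, Gstm1, Gstp1, Sult1b1 and Sult2b1, and those with a TATA box were Gsta2, Gstm1, Gstm7, Sult1c1, Sult2a6, Ugt2a1 and Ugt3a1.

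Genes that supply, undo, export or regulate conjugation were read from lists of 52 genes. Between adenomas and small intestine, 15 of the 49 tested were called lower and 5 higher, while 11.1% of all genes tested were lower and 11.3% higher. Of 7 glutathione supply genes tested, 2 were lower, Gclm, a subunit of the rate-limiting enzyme of glutathione synthesis (3.62-fold), and Ggt1, which breaks down extracellular glutathione (7.09-fold). Of 5 membrane and other transferases tested, 2 were lower, Mgst2 and Mgst3 (log2 fold changes -1.23 and -1.22). Of 8 genes of sulfate and PAPS supply, 2 were lower, the PAPS synthase Papss1 (2.82-fold) and the sulfate transporter Slc26a2 (5.03-fold). None of the 3 genes of UDP-glucuronate supply was called. The deconjugating enzymes were split, with Gusb, the glucuronidase that removes glucuronic acid, 5.15-fold higher and the sulfatase Arsa lower (log2 fold change -1.75), 2 of 4 tested.

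Of 6 conjugate exporters, 2 were higher and 2 lower. Abcc1 and Abcc4, which lie mostly in basolateral membranes, were 8.01-fold and 14-fold higher, and Abcc2 and Abcg2, which lie in the apical membrane, were 4.57-fold and 7.74-fold lower. Of 10 regulators, 4 were lower and 0 higher, namely Ahrr, the repressor of the aryl hydrocarbon receptor (log2 fold change -1.31), the xenobiotic receptor Nr1i2 (-1.98), its partner Rxra (-2.41) and Hnf4a, a transcription factor of enterocytes and hepatocytes (-1.40). Nfe2l2, which encodes NRF2, was not called. Of 6 target genes of NRF2 and the aryl hydrocarbon receptor tested, Hmox1 (+1.55) and Cyp1b1 (+3.08) were higher and Srxn1 (-2.30) and Tiparp (-1.70) lower.

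Markers of cell types moved in the same comparison, in which 11.1% of all genes tested were called lower and 11.3% higher. Of 10 enterocyte markers, 6 were called lower (Sis, Apob, Mttp, Anpep, Slc5a1 and Treh), and their summed level was 8.64 to 9.31 in adenomas, 10.5 to 10.8 in adjacent tissue and 10.3 to 11.9 in small intestine. Of 5 ileum markers, 3 were lower (4.17 to 4.83 in adenomas, 6.25 to 8.90 in adjacent tissue and 7.80 to 10.7 in small intestine). Of 6 fibroblast markers, 3 were higher (6.49 to 6.71 in adenomas against 3.72 to 6.13 in small intestine), and of 6 genes of cell division 5 were higher (6.79 to 6.90 against 4.46 to 5.86). Epithelial markers summed to 10.7 to 11 in adenomas and 11.4 to 11.7 in small intestine, with 1 of 8 called higher and 3 lower. Leukocyte markers had 1 of 6 called higher and 2 lower, smooth muscle markers 1 of 6 lower and markers of the proximal small intestine 0 of 6. Colonocyte markers were split, with 2 of 9 higher (Aqp8 and B3galt5) and 3 lower (Car4, Slc26a3 and Mettl7b). Of 6 hepatocyte markers, 3 were higher and 1 lower. The part of these cells in the levels of the conjugating enzymes was not tested.

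The second comparison sets adenomas against tissue taken beside them in the same mouse. Here 4 of 36 members were called, all lower in adenomas, namely Ugt2a3, Sult1b1, Ugt1a10 and Ugt1a6b, and 0 higher. This is 11.1% lower, while 1.78% of all genes tested were lower and 2.40% higher. The median log2 fold change was -0.481 over the 36 members and -0.0357 over all genes, and groups did not overlap for 22 members (61.1%) and for 57.1% of all genes. By their brightest probes all 11 Ugt genes tested had a negative value, from -2.01 for Ugt2a3 to -0.065 for Ugt3a1, with a median of -0.978. The share of negative values over all genes was not computed. These 11 are not separate measurements, because Ugt1a genes share exons and the Ugt2b37 and Ugt2b5 probes are alike. One member, Gsto2, was tested only because it was above background on every adenoma array, and the other 35 were measured on all 5 arrays.

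Ugt2a3 was at 3.37 and 3.09 in adjacent tissue and 1.10, 1.22 and 1.33 in adenomas, 4.03-fold lower (log2 fold change -2.01, SE 0.170, adjusted p = 0.00383). Sult1b1, whose levels are given above, was 3.05-fold lower (-1.61, SE 0.151, adjusted p = 0.00475), Ugt1a10 2.72-fold (-1.44, SE 0.178, adjusted p = 0.00774) and Ugt1a6b 2.57-fold (-1.36, SE 0.181, adjusted p = 0.00917). The other Ugt1a10 probe was not called (-1.06, adjusted p = 0.0431), and the dimmer Ugt1a6b probe had a log2 fold change of +1.22. On the 2 slides the differences were -2.16 and -1.86 for Ugt2a3 and -1.66 and -1.50 for Sult1b1. They were -1.38 and -1.42 for Ugt1a10 and -1.36 and -1.27 for Ugt1a6b. Because the groups of all 4 did not overlap, their sign could not differ between slides. These calls rest on few arrays, since without the first adjacent array or any 1 of the adenoma arrays 0 of the 4 were called, and without the second adjacent array Ugt2a3 and Sult1b1 remained. With slide as a block, without the filter on dim probes or with all groups in 1 fit, likewise 0 of the 4 were called.

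The largest differences without a call were those of Gsta4, Sult1d1 and Sult1a1. Gsta4, which conjugates products of lipid peroxidation, was at 0.01 and 1.5 in adjacent tissue and 3.07, 3.12 and 1.90 in adenomas, a log2 fold change of +1.94 (SE 0.562, adjusted p = 0.0615). Sult1d1 had one of -1.77 (SE 0.253) with an adjusted p of 0.0108, just over the threshold. Sult1a1, a phenol sulfotransferase, was at -0.34 and -0.57 in adjacent tissue and -2.19, -2.05 and -1.58 in adenomas, without overlap (-1.49, SE 0.230, adjusted p = 0.0130). The other Sult1a1 probe did pass the thresholds, with a log2 fold change of -1.70. Gstm5 had an adjusted p of 0.0288, Sult2b1 of 0.0292 and Ugt2b34 of 0.0135. Of the 49 partner genes tested, Ggt1 (-1.60) and Ahrr (-1.79) were lower and Gusb (+1.46) and Cyp1b1 (+1.64) higher. Over all genes tested, 1.78% were lower and 2.40% higher. Of the 10 enterocyte markers 2 were called lower, as was 1 of 9 colonocyte markers (Slc26a3). The epithelial marker Krt18, the fibroblast marker Col1a1, the cell division gene Plk1 and the hepatocyte marker Ttr were called higher.

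Between adjacent tissue and healthy small intestine, 0 of 36 members passed the thresholds in limma and 7 (19.4%) had an unadjusted p under 0.05, as did 30.6% of all genes tested. Over all genes tested, 0.00925% were called in either direction. The largest differences were those of Sult2b1 (-1.48, adjusted p = 0.0604), Sult1b1 (-1.01, adjusted p = 0.121), Gstm5 (+0.93, adjusted p = 0.121), Gsto1 (-0.92, adjusted p = 0.171) and Gstt1 (-0.87, adjusted p = 0.365), all as log2 fold changes. Gsto1, an omega-class enzyme that reduces dehydroascorbate, was at 7.18, 7.76 and 8.40 in small intestine and 6.71 and 7.0 in adjacent tissue. Gstt1 was at 3.65, 5.06 and 5.59 in small intestine, 3.43 and 4.36 in adjacent tissue and 2.81, 3.33 and 2.82 in adenomas. For Gsto1 the groups did not overlap, and for Gstt1 they did. The median log2 fold change was -0.108, close to -0.0956 over all genes tested, and 0 of 48 partner genes were called. This comparison shares the adjacent arrays with the second and the small intestine arrays with the first.

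Colon was compared with small intestine to see how the families differ along the healthy gut. With all 3 colon arrays, 0 of 36 members passed the thresholds in limma, and 0.00969% of all genes tested were called in either direction. An unadjusted p under 0.05 was found for 11 members (30.6%) and for 23.9% of all genes. Without the third colon array 5 members were called. The phenol sulfotransferase Sult1a1, the sulfotransferase Sult1c2 and the mu-class transferase Gstm2 were higher in colon, and Sult2b1 and Ugt2a3 lower. This is 3 of 36 higher and 2 of 36 lower, or 8.33% and 5.56%, against 3.34% and 3.90% of all genes. Of the 36, Ugt2a3 was tested because small intestine alone measured it.

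Sult1a1 was at -0.95, -0.51 and -2.35 in small intestine and at 6.53, 6.16 and -1.65 on the colon arrays. The third colon array lay among the small intestine arrays and the others far above them. Without it the difference was 196-fold (log2 fold change +7.61, SE 0.550, adjusted p = 0.000894), and with it the log2 fold change was +4.95 (SE 2.12, adjusted p = 0.219). Sult1c2 followed the same pattern, at 0.48, -1.57 and -2.72 in small intestine and 4.51, 4.30 and -1.64 in colon. Its difference was 51.0-fold without the third array (+5.67, SE 0.872, adjusted p = 0.00905), and the log2 fold change was +3.66 with it (adjusted p = 0.254). Gstm2 was at 2.35, 2.76 and 3.11 in small intestine and 5.21, 5.06 and 2.28 in colon, 5.25-fold higher without the third array (+2.39, SE 0.290, adjusted p = 0.00432).

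**Figure D4:**
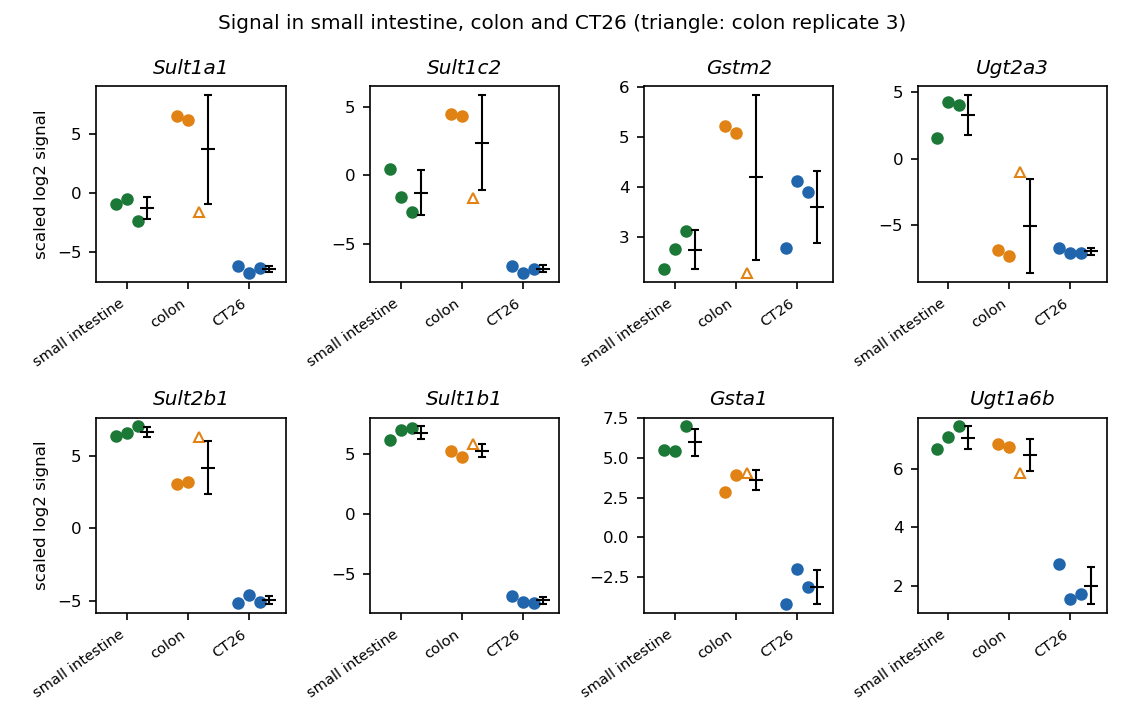
Scaled log2 signal of the members that differed most between colon and small intestine, and of Sult1b1, Gsta1 and Ugt1a6b, with 1 point for each array of small intestine (3), colon (3) and CT26 (3), the mean and SD of each group in black and the third colon array as a triangle. The other colon arrays lie at 6.16 and 6.53 for Sult1a1 while the third, at -1.65, lies within the small intestine range.

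Ugt2a3 was at 1.56, 4.25 and 4.08 in small intestine and at -6.88, -7.35 and -1.03 in colon, where it was not well above background on the first and second arrays. Without the third array it was at least 301-fold lower in colon (adjusted p = 0.00123), and with it the log2 fold change was -8.38 with an adjusted p of 0.0803. In such a bound the dim arrays are given the lowest signal that counted as well above background there. Sult2b1 was at 3.05, 3.17 and 6.30 in colon against 6.32 to 7.0 in small intestine, 11.4-fold lower without the third array (-3.51, SE 0.278, adjusted p = 0.00123) and at a log2 fold change of -2.44 with it (adjusted p = 0.164). Gsta2, at 4.56, 4.41 and 6.03 in small intestine and 1.92, 3.01 and 1.97 in colon, did not overlap even with the third array (-2.70, adjusted p = 0.0736). The median over members was -0.410 with all arrays and -0.287 without the third, against -0.0765 and -0.0552 over all genes.

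Of the partner genes 0 of 48 were called with all arrays, and 1 of 50 was higher (Abcc1) and 5 lower (Ggt1, Abcc2, Rxra, Srxn1 and Cyp1b1) without the third. Over all genes tested without it, 3.34% were higher and 3.90% lower. All 10 enterocyte markers were lower in colon without the third array. So were 3 of 6 proximal and 2 of 5 ileum markers, the epithelial marker Vil1 and the adipocyte marker Cidec. Of 9 colonocyte markers 4 were higher (Car1, Aqp8, Saa1 and B3galt5). The part of these cells in the levels above was not tested.

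CT26 cells were compared with colon. Most conjugating enzymes measured in colon were lower in CT26, many of them not well above background there. Of 33 members tested 23 were called lower and 1 higher, or 69.7% and 3.03%, while 16.2% of all genes were lower and 21.0% higher. The filter bears on this count, because 19 of the 33 members passed it through colon alone. Among these 19 are 18 of the 23 lower calls and Gstp1. Gstp1 was bright in CT26 and failed there only because its spot on the second array was marked as an outlier. Every member that entered through colon because it was dim in CT26 was thus called lower. Of the 13 members measured on all 6 arrays, 5 were called lower (Gsta1, Gsta2, Gstm5, Ugt1a10 and Ugt1a6b). The shares over all genes include genes measured in 1 group only, so they are no standard for this count. A share over genes measured in both groups was not computed. Gsta1 and Gsta2 are also the pair with alike probes. Without the third colon array, 24 of 35 were lower and 1 higher, or 68.6% and 2.86%, against 19.4% and 20.1% of all genes, and Ugt1a6a joined the lower ones, at least 6.21-fold.

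**Figure D5:**
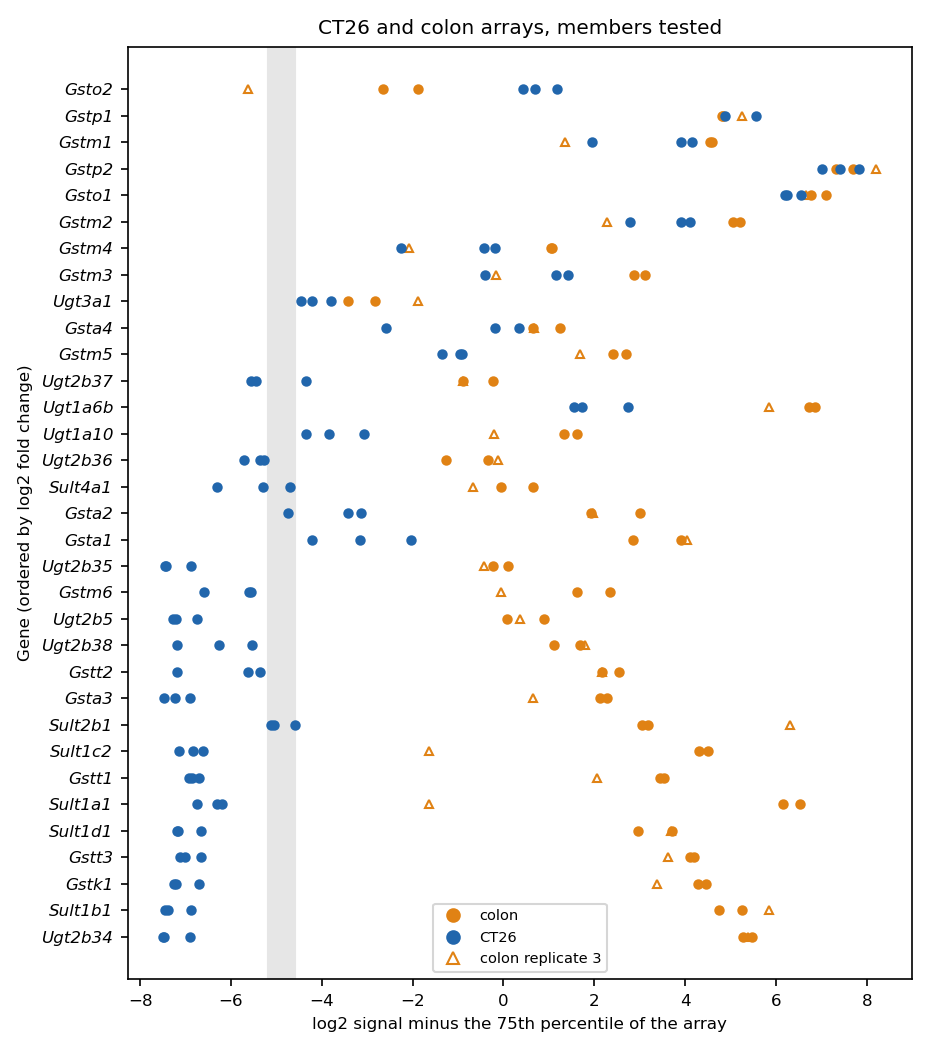
Scaled log2 signal of the 33 tested members on each CT26 and colon array, 1 point an array, with the third colon array as a triangle and genes ordered by log2 fold change. The gray band is the range over CT26 arrays of the lowest signal that was well above background. The CT26 points of most Sult, Ugt2b and theta-class Gst genes lie below or within the band, and Gsto2 is the called member that is higher in CT26.

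Among Sult genes all 6 tested were called lower, and all 6 entered the test only through colon, so this count was shaped by the filter. Sult1b1 was at 5.25, 4.75 and 5.85 in colon and at -6.88, -7.39 and -7.44 in CT26, not well above background, and thus at least 1230-fold lower (at least 1012-fold without the third colon array, adjusted p = 6.11e-07 with it). Sult1d1 was at 3.71, 2.97 and 3.69 in colon and -6.66, -7.18 and -7.17 in CT26, at least 346-fold lower (adjusted p = 8.26e-07). In both the third colon array lay near the others.

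Sult1a1 and Sult1c2 were at -6.21, -6.74 and -6.31 and at -6.62, -7.13 and -6.83 in CT26, also not well above background. They were at least 404-fold and 165-fold lower (adjusted p = 0.00375 and 0.00157), and at least 2560-fold and 667-fold without the third colon array. The Sult1a1 call was lost without the first or second colon array or any 1 of the CT26 arrays, and that of Sult1c2 without the first CT26 array. Sult2b1 was at 3.05, 3.17 and 6.30 in colon and -5.11, -4.60 and -5.05 in CT26, 548-fold lower (adjusted p = 8.88e-05), or 262-fold without the third colon array, and 2 of 3 CT26 arrays measured it. Sult4a1, the sulfotransferase of neurons, was 42.6-fold lower, with 1 of 3 CT26 arrays above background.

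Of the Ugt2b genes all 6 tested were called lower, and these too entered the test only through colon. Ugt2b34 was at 5.46, 5.27 and 5.38 in colon and -6.91, -7.48 and -7.49 in CT26, at least 1305-fold lower (adjusted p = 5.39e-07). Ugt2b38, Ugt2b5, Ugt2b35 and Ugt2b36 were at least 91.2-fold, 42.8-fold, 27.6-fold and 21.2-fold lower, and Ugt2b37 21.8-fold with 1 of 3 CT26 arrays above background. Ugt1a10 was measured in both groups, at 1.34, 1.62 and -0.21 in colon and -3.06, -3.84 and -4.34 in CT26, 25.3-fold lower (37.4-fold without the third colon array). Ugt1a6b, by its brightest probe, was at 6.85, 6.73 and 5.84 in colon and 2.74, 1.56 and 1.72 in CT26, 22.1-fold lower. Which Ugt1a transcripts that probe measured cannot be told apart. The dimmer Ugt1a6b probe was at -0.90, 0.72 and -5.29 in colon and -2.21, -3.47 and -3.62 in CT26. It was not called (log2 fold change -1.28). Ugt3a1 was not called.

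The theta-class genes and Gstk1 were not well above background in CT26. Gstk1 was at 4.29, 4.46 and 3.39 in colon and -6.71, -7.26 and -7.22 in CT26, at least 521-fold lower (adjusted p = 1e-06), and Gstt3 at 4.19, 4.10 and 3.61 and at -6.66, -7.01 and -7.12, at least 494-fold lower (adjusted p = 5.46e-07). Gstt1 was at 3.54, 3.45 and 2.05 in colon and -6.85, -6.92 and -6.71 in CT26, at least 255-fold lower (adjusted p = 2.67e-06), and Gstt2 at least 155-fold lower.

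Of 4 alpha-class genes 3 were called lower. Gsta3 was at 2.13, 2.28 and 0.64 in colon and -6.91, -7.24 and -7.48 in CT26, at least 101-fold lower (adjusted p = 6.28e-06). Gsta1 and Gsta2, measured in both groups, were 107-fold and 67.5-fold lower, and Gsta4 was not called. In contrast, the omega-class gene Gsto1 was at 7.11, 6.78 and 6.67 in colon and 6.21, 6.54 and 6.25 in CT26 and was not called, and neither were the pi-class genes Gstp1 and Gstp2, whose enzymes are the best known in tumors. Gstp2 was at 7.70, 7.32 and 8.21 in colon and 7.02, 7.83 and 7.40 in CT26, with overlap. Gstp1 was at 4.81, 4.83 and 5.25 in colon and 4.88 and 5.56 on the CT26 arrays that measured it. Gsto2 was the single member called higher, at -1.89, -2.65 and -5.62 in colon and 1.18, 0.43 and 0.69 in CT26. It was not well above background on the third colon array, and with all arrays it entered the test only through CT26. The difference was 17.8-fold (log2 fold change +4.15, SE 0.882, adjusted p = 0.00565) with all arrays and 8.19-fold (adjusted p = 0.000472) without the third colon array. With all colon arrays, the call was lost when any 1 of the CT26 arrays was left out.

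In the mu class, Gstm5 was 10.1-fold lower in CT26 and Gstm6 at least 77.7-fold lower (at least 124-fold without the third colon array), while Gstm1, Gstm2, Gstm3 and Gstm4 were not called on their brightest probes. Gstm2 was at 5.21, 5.06 and 2.28 in colon and 2.78, 4.11 and 3.90 in CT26. For Gstm3 and Gstm4 the answer depended on the probe. The brightest Gstm3 probe was at 2.87, 3.11 and -0.16 in colon and -0.40, 1.42 and 1.17 in CT26 (log2 fold change -1.21, or -2.26 with an adjusted p of 0.0110 without the third colon array). The other was at -6.92, -7.42 and -7.49 in CT26, not well above background, and was called, at least 228-fold lower (at least 367-fold without the third colon array). The brightest Gstm4 probe had a log2 fold change of -0.98, and the other, also not well above background on any CT26 array, was called, at least 23.5-fold lower. The brightest probe of Gstm1 is placed on chr5 of mm9, and its other probe on chr3 with the rest of the mu class.

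Of 48 partner genes tested, 17 were called lower and 7 higher in CT26 than in colon, while 16.2% of all genes were lower and 21% higher. Without the third colon array 18 and 7 of 50 were called, against 19.4% and 20.1% of all genes. Mgst2 and Nr1i3 then lost their call, and Abcc2, Hpgds and Slc26a1 were called lower. Of 8 glutathione supply genes, the cystine transporter Slc7a11 was at least 11.6-fold higher and the glutathione peroxidase Gpx2 4067-fold lower (1975-fold without the third colon array). Of 5 other transferases, Gstcd was 10.4-fold higher and 3 were lower, Mgst1 (at least 760-fold), Mgst2 (5.74-fold) and Mgst3 (12.2-fold). Of 3 genes of UDP-glucuronate supply, 2 were lower, Ugp2 (2.73-fold) and Slc35d1 (12.8-fold, or 7.92-fold without the third colon array), and of 7 genes of sulfate and PAPS supply 2, Papss2 (719-fold) and Slc26a2 (17.7-fold). Arsa was the called gene among 4 deconjugating enzymes and was 2.60-fold higher.

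Of 6 exporters, Abcc4 was 13.7-fold higher, and Abcc3 (at least 685-fold), Abcg2 (at least 1178-fold, or 638-fold without the third colon array) and Abcb1a (6.61-fold) were lower. Of 10 regulators, the aryl hydrocarbon receptor Ahr was 6.02-fold higher and 5 were lower, Hnf4a (at least 4685-fold), Nr1i2 (at least 159-fold), Ahrr (at least 3.14-fold), Nr1i3 and Ppara. Of 5 target genes tested, Hmox1 and Tiparp were 20.8-fold and 18.3-fold higher and Nqo1 10.6-fold lower. The 8 epithelial and 6 smooth muscle markers were all called lower in CT26, and of 6 genes of cell division 4 were higher. Of 8 colonocyte markers tested 5 were lower, and 9 of 9 without the third colon array. Lower were also 3 of 7 enterocyte, 4 of 4 ileum and 3 of 5 leukocyte markers tested, with 0 higher. Of 6 fibroblast markers 1 was higher (Col1a2) and 2 lower. Over all genes tested, 16.2% were lower and 21% higher. The summed level of the epithelial markers was 5.19 to 5.82 in CT26 and 10.6 to 11.6 in colon. The part of these cell types in the differences between tissue and cell line was not tested.

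Genes of the Gstm cluster shared their lowest array in 4 of the 5 groups. All 7 Gstm genes were lowest on the first small intestine array, the first adjacent array, the third colon array and the first CT26 array, and highest on the third small intestine array and the second adjacent array. In adenomas the order was mixed, with 5 of 7 lowest on the first array and 5 of 7 highest on the second, and in colon 4 were highest on the first array and 3 on the second. The 6 Ugt2b genes that were measured above background on any array shared no such order. They were all highest on the second adjacent array, but in small intestine 5 were highest on the first array and 1 on the third, and in adenomas 2 on the first and 4 on the second. All values of an array share its RNA and its scaling, and some probes of these clusters are alike, so these orders are given as a description. Ileum markers also differed within groups. Their summed level was 10.7 on small intestine array 1, against 7.80 and 8.14 on the others. It was 8.90 and 6.25 on the adjacent arrays, and 5.37, 5.29 and 11.7 on the colon arrays. In adenomas it was instead lowest on array 1 (4.17, against 4.83 and 4.67). The part of gut region in these orders was not tested. Gstm6 was not well above background on any CT26 array, so its order there carries no information. By position, 13 of the 51 brightest probes lie on chr5 of mm9, among them those of all Ugt2a and Ugt2b genes, Sult1b1, Sult1d1 and Sult1e1, and 8 on chr7, with Sult1a1 and every Sult2 gene.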

How the data were processed

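RNA of each sample had been extracted on columns with DNase digestion, labelled with Cy3 and hybridized to 1 Agilent SurePrint G3 Mouse array. The authors deposited the scanner output, read with Feature Extraction 10.7.3.1. Its processed signal is a background-subtracted intensity that was not normalized across arrays. A table of log2 values, normalized by the authors with a method not given in the sources used here so that all arrays have the same distribution, was deposited as well. Its columns for the first small intestine and the third adenoma array were most like another array of the same group (correlation with their own array 0.965 and 0.956). Its 28 flag and detection columns, and its columns of the authors' own fold changes and p-values, were not used.

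From the scanner output, control spots and outlier spots were left out, spots of a probe were averaged, and levels were the log2 of the processed signal less the 75th percentile of their array. Groups were taken from the labels. Each pair of groups was fitted with limma 3.58.1 in R 4.3.3 on its own arrays, without covariates, and the method was tested on simulated data. Each member was represented by the probe whose mean level over the 14 arrays was the highest. Where a group was not well above background on any array, a bound was computed from the lowest signal of the array that was. The precision is limited by the number of arrays, and the arrays lie on 2 slides. Within each slide every called member kept its sign. These were 9 of 9 between adenomas and small intestine and 4 of 4 between adenomas and adjacent tissue. Between CT26 and colon they were 24 of 24, and between colon and small intestine, without the third colon array, 5 of 5. The groups of each called member did not overlap, so no other outcome was possible and this is no check on slides.

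The members and the gene lists were chosen with earlier results of these data known. An item of these lists and searches is not reported here. Every member was to be named, with values on every array for those called (up to 10 in each direction, by size) and for the 5 largest differences where fewer than 5 were called. Alternatives were normexp background correction (offset 50), quantile normalization, the authors' table, other filters on dim probes, an intensity trend, any probe of a gene in place of the brightest, all 5 groups in 1 fit, a block for slide, for replicate number or, added after seeing the data, for title number, an adjusted p of 0.05 and the omission of each array. Probe positions are those of the files (mm9), and promoters are from RefSeq (GRCm38.p6). Python 3.11.15 with pandas 2.3.3, numpy 2.4.6 and matplotlib 3.10.9 was used for the rest.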

Additional observations from a re-analysis of the deposited data

How the results depend on the processing

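No called gene changed direction under any alternative that was run on its brightest probe. Between adenomas and small intestine the number of called members stayed between 7 and 13, with 9 in the fit reported and 13 without the first small intestine array. Between adenomas and adjacent tissue the 4 calls became 0 with no filter on dim probes, with all groups in 1 fit and with slide as a block, and 8 at an adjusted p of 0.05. They ranged from 0 to 3 when each array was left out, with 0 without the first adjacent array or any 1 of the adenoma arrays. Between colon and small intestine the count of 0 became 2 with all groups in 1 fit and ranged from 0 to 5 when each array was left out, with 5 without the third colon array. Between CT26 and colon the 24 calls became 5 when probes had to be above background in both groups, since most members are not above background in CT26, and stayed between 21 and 26 otherwise. Adjacent tissue and small intestine had 0 calls under every alternative. The cause of the other changes was not tested. Of the 37 values of called genes, 6 lost their call with all groups in 1 fit, 6 with slide as a block, 5 with no filter on dim probes, 3 in the authors' table and 2 with quantile normalization, and 0 with normexp or an intensity trend. What limits these results is signal over background in CT26, where folds are bounds, and 2 or 3 arrays a group.

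Arrays of equal replicate number had deviations from the group means that correlated at -0.126 to 0.291 over the comparisons, and nothing in the labels ties the numbers to an animal, so the fits reported have no block. With the replicate block the calls between adenomas and adjacent tissue became 0, and the counts for adenomas and small intestine (9), CT26 and colon (24) and the others (0) did not move. Numbers in the sample titles pair the first adjacent array with the second adenoma and the second adjacent array with the third adenoma (correlations 0.0355 and 0.0257). With this pairing as the replicate block, an alternative chosen after seeing the data, the calls between adenomas and adjacent tissue were 0 as well.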
